A study of Homo sapiens with 6 samples.

Results

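The genes described here are 42 neighbours on the long arm of chromosome 14, at 14q11-q12, from CEBPE at one end to G2E3 at the other. They were chosen by their position and because the stretch had shown coordinated lower signals in both derived lines of the study, so the members were selected on the values against PC-3 that are given below. Those values, and the counts of members past a threshold that go with them, are therefore only a description, and no p-value is printed for them. A member was found where a probe set of the array carried exactly 1 gene symbol equal to its name. Of the 42 members, 37 had such a probe set, 69 probe sets in all, and 31 passed the filter on low signals and are among the 13621 genes tested. HOMEZ, EFS, CPNE6, TGM1, CIDEB and ADCY4, 6 members, lay below the filter, with no array above 284 in any of their probe sets, and are described no further. TM9SF1, PSME2, CHMP4A, DHRS4 and GMPR2, 5 members, had no probe set with a single symbol and have no value here. RefSeq lists 66 protein-coding genes from CEBPE to G2E3, so the members are not every gene of the stretch.

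The RNA of untreated cells was measured on 6 Affymetrix arrays, 2 for each of 3 lines grown in the same serum-containing medium. PC-3 is a human prostate cancer line from a bone metastasis. TEM4-18 and TEM2-5 were each isolated, in an experiment of its own, from the PC-3 cells able to pass through a sheet of microvascular endothelial cells from human lung, so all groups share the PC-3 background and each TEM line is 1 isolate. Whether both arrays of a line stand for separate cultures is not given in the labels, so the p-values below measure only the spread between arrays, which may be technical.

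Genes that lie side by side can share promoters, regulatory elements and chromatin state, and they share their DNA copy number, but neighbours on a chromosome need not have related functions. The stretch holds genes of several unrelated kinds: subunits of the proteasome activator and the ubiquitin-like protein NEDD8, factors of RNA processing and ribosome assembly, a cluster of short-chain dehydrogenases, the survival gene BCL2L2 and the necroptosis kinase RIPK3. An array measures steady-state RNA of the culture as a whole, in which fewer cells of a type and less RNA per cell cannot be told apart. DNA copy number and chromatin were not measured here.

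Promoter windows from RefSeq, on build GRCh38.p14, running from 250 bases before to 50 bases after the annotated start, were found for 38 of the 42 members. BCL2L2, TGM1, RIPK3 and TM9SF1 were not matched. The windows below are shown because NYNRIN had the lowest TEM signals relative to PC-3 among the tested members, NOVA1 was the member that was called higher, and NOP9 and DHRS1 start in opposite directions from a shared region. Each reads 5′ to 3′ on the strand of its gene, and capitals mark the GC box, GGGCGG or its reverse complement. NYNRIN is at chr14:24398753-24399052 on the plus strand, NOP9 at chr14:24299600-24299899 on the plus strand, DHRS1 at chr14:24299731-24300030 on the minus strand and NOVA1 at chr14:26597984-26598283 on the minus strand.
NYNRIN: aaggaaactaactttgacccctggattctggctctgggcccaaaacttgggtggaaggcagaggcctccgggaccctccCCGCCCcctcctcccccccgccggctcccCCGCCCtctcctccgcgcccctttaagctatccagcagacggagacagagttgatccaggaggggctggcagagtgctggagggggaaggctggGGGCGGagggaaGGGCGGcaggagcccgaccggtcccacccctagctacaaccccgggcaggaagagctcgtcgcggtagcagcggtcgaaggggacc
NOP9: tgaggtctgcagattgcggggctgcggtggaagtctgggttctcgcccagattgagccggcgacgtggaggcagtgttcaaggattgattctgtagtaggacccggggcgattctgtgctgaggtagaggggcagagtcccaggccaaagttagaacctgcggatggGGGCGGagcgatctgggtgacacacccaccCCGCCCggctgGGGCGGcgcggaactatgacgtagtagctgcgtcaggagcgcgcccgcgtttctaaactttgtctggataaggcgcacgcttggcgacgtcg
DHRS1: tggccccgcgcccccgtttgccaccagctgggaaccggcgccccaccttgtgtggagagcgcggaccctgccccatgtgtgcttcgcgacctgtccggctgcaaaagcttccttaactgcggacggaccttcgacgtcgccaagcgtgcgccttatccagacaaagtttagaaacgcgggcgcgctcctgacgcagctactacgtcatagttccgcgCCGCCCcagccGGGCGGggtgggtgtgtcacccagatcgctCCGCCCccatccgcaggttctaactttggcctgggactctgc
NOVA1: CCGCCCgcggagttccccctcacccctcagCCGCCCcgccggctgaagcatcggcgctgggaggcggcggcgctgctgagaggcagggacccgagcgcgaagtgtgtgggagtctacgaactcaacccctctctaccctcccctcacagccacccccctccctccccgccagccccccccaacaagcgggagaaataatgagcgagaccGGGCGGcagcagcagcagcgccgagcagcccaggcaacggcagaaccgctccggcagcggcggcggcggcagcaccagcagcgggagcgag

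The NYNRIN window held 4 GC boxes and the other windows 3 each. The NOP9 and DHRS1 windows share 169 bases, read on opposite strands. Over the first listed window of each member, 27 of 38 (71.1%) held at least 1 GC box, the letters bound by SP-family factors. Of the first listed windows of all genes, of the same 300 bases and called all windows here, 12174 of 27305 (44.6%) did. All 42 members are protein-coding, while all windows were not limited to protein-coding genes, so unlike sets of genes are compared. The E-box CAGGTG, searched on both strands, to which repressors of the epithelial program such as ZEB1 can bind, was in 3 of 38 (7.89%) against 20.6% of all windows. The letters TATAAA, also on both strands, were in 2 of 38 (5.26%) against 3264 of 27305. No motif searched is contained in another. The median number of CpG was 21 in the members and 14 in all windows, and the median GC content 63.2% against 58.3%. These are counts of letters in the reference sequence, and no binding was measured.

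Most of the tested members gave lower signals in both TEM lines than in PC-3, and NOVA1 gave a higher one. The median log2 difference of the 31 members was -0.51 in TEM4-18, or 70.1% of PC-3, with quartiles at -0.70 and -0.34 and a range of -3.03 to 1.20. In TEM2-5 it was -0.38, or 76.6% of PC-3, with quartiles at -0.58 and -0.20 and a range of -2.56 to 1.10. Differences, and the 70.1% and 76.6% taken from them, are on the scale log2(signal + 51.8), which understates changes of dim genes. Percents of PC-3 given below for single genes are ratios of mean signals. Of the 31, 29 were below 0 in TEM4-18 and 27 in TEM2-5, where 53.7% and 52.8% of all tested genes were below 0 and their medians were -0.04 and -0.02. Both comparisons use the same PC-3 arrays, so the 2 sets of values are not independent.

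A gene is called here where limma's p-value, adjusted by Benjamini-Hochberg over all tested probe sets, was under 0.05. In TEM4-18 17 members were called lower and 1 higher, where 16% and 13.3% of all tested genes were called lower and higher. In TEM2-5 13 members were called lower and 1 higher, where 10.1% and 8.98% of all genes were. The count in TEM2-5 was 7 without the first PC-3 array, and 5 without the second PC-3 array or either TEM2-5 array. Every TEM2-5 call but those of BCL2L2, NGDN, NYNRIN, G2E3 and NOVA1 was lost without at least 1 of the PC-3 or TEM2-5 arrays, and a call that was kept supports nothing, since the members were chosen on these values. In TEM4-18 the calls of PSME1, DHRS1 and NOP9 were lost without either PC-3 array or the second TEM4-18 array, that of THTPA without the second TEM4-18 array, that of DHRS2 without the first PC-3 array and that of PCK2 without the second. Called lower in both lines were 13 members, and 9.1% of all tested genes were. PABPN1, THTPA, DCAF11 and KHNYN were called lower in TEM4-18 but not in TEM2-5. For the same reason nothing is read from the counts against the shares of all genes. All 4 TEM arrays lay below both PC-3 arrays for 21 of the 31 members, as for 25.7% of all genes, and all 4 lay above them for NOVA1.

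**Figure D1:**
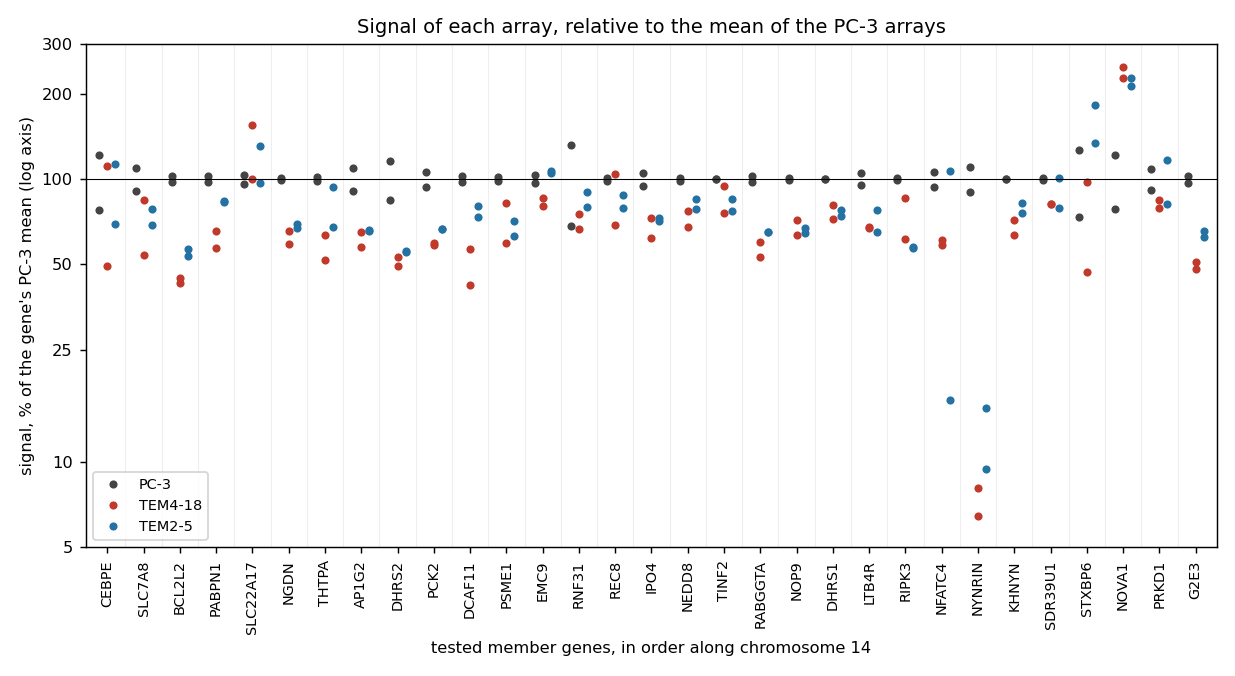
Signal on each of the 6 arrays for the 31 tested members, as a percent of the gene's PC-3 mean on a log axis, in their order along chromosome 14, with points coloured by line. Most TEM points lie below 100, with NYNRIN lowest (means of 7.28% and 12.5%) and NOVA1 highest (238% and 220%).

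Protein turnover is the first group by function, with 6 tested members, EMC9 counted among them though it serves membrane protein insertion. Of these, 6 were below 0 in TEM4-18 and 5, all but EMC9, in TEM2-5. Called lower were 4 of them in TEM4-18 and 3 in TEM2-5, where 16% and 10.1% of all tested genes were. The groups here and below are parts of a set chosen on these values, so nothing is read from their counts. NEDD8, the ubiquitin-like protein that is conjugated to cullins and switches on cullin-RING ubiquitin ligases, gave 26349 and 25743 on the PC-3 arrays, 20076 and 17661 in TEM4-18 and 22100 and 20495 in TEM2-5. Every TEM array lay below both PC-3 arrays, and the difference was -0.47 ± 0.08 (SE) in TEM4-18 and -0.29 ± 0.08 in TEM2-5. DCAF11, a substrate receptor of CUL4 ubiquitin ligases, gave 1773 and 1684 in PC-3, 977 and 728 in TEM4-18 and 1384 and 1272 in TEM2-5. The lines did not overlap, with TEM2-5 between the others, and the difference was -0.99 ± 0.17 in TEM4-18 and -0.37 ± 0.17, not called, in TEM2-5. G2E3, an E3 ubiquitin ligase with a role in DNA damage responses, gave 4315 and 4077 in PC-3, 2023 and 2130 in TEM4-18 and 2628 and 2744 in TEM2-5. Its TEM signals were 49.5% and 64.0% of PC-3, at -0.997 ± 0.11 and -0.63 ± 0.11.

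PSME1, the alpha subunit of the PA28 activator that caps the proteasome, gave 8566 and 8291 in PC-3, 6923 and 5015 in TEM4-18 and 5975 and 5293 in TEM2-5. The TEM4-18 arrays enclosed the TEM2-5 ones, and all lay below PC-3, at -0.51 ± 0.14 and -0.58 ± 0.14. RNF31, the catalytic subunit of the linear ubiquitin assembly complex, was not called: its PC-3 arrays, 239 and 459, lay far apart, and the lines overlapped. EMC9, a subunit of the ER membrane protein complex that inserts membrane proteins, was not called either, at -0.26 ± 0.13 in TEM4-18 and 0.08 ± 0.13 in TEM2-5.

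RNA processing, ribosome assembly and nuclear import hold 7 tested members. In TEM4-18 6 were called lower and 1 higher, where 16% and 13.3% of all tested genes were. In TEM2-5 4 were called lower and 1 higher, where 10.1% and 8.98% of all tested genes were. NYNRIN, a gene with an NYN nuclease domain and sequence related to retroviral integrase, gave 826 and 1012 in PC-3, 59.2 and 74.6 in TEM4-18 and 86.8 and 143 in TEM2-5. Its TEM means were 7.28% and 12.5% of the PC-3 mean of 919 ± 131 (SD, n = 2), and both lay below the filter of 174, so that NYNRIN was tested only because it was high in PC-3. The difference was -3.03 ± 0.38 in TEM4-18 and -2.56 ± 0.38 in TEM2-5. KHNYN, another NYN-domain gene, which acts with the antiviral protein ZAP, lies near it in the stretch. Its signals were 3352 and 3347 in PC-3, 2405 and 2124 in TEM4-18 and 2749 and 2547 in TEM2-5, with no overlap between lines, at -0.56 ± 0.12 and, not called, -0.33 ± 0.12.

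NGDN, a factor of small ribosomal subunit assembly, gave 6422 and 6339 in PC-3, 3754 and 4184 in TEM4-18 and 4283 and 4416 in TEM2-5, with all lines apart and differences of -0.68 ± 0.10 and -0.55 ± 0.10. NOP9, which also serves in ribosome assembly, gave 1800 and 1818 in PC-3, 1298 and 1152 in TEM4-18 and 1213 and 1163 in TEM2-5. The TEM lines overlapped each other and not PC-3, at -0.55 ± 0.14 and -0.59 ± 0.14. Another tested probe set of NOP9 was at -0.37 in TEM4-18 and -0.07 in TEM2-5 and was not called. Both NOP9 calls were lost when all probe sets of a gene were averaged. DHRS1, which shares the promoter region printed above with NOP9, gave 3611 and 3596, then 2907 and 2611, then 2797 and 2676 in the same order. It too overlapped between the TEM lines and not with PC-3, at -0.38 ± 0.11 and -0.39 ± 0.11. IPO4, an importin that carries histones and ribosomal proteins into the nucleus, gave 4757 and 5277 in PC-3, 3106 and 3669 in TEM4-18 and 3573 and 3642 in TEM2-5. Its TEM lines overlapped each other and not PC-3, at -0.56 ± 0.11 and -0.47 ± 0.11. PABPN1, the nuclear poly(A)-binding protein, was at -0.68 ± 0.14 in TEM4-18 and, not called, at -0.25 ± 0.14 in TEM2-5.

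NOVA1, an RNA-binding regulator of splicing best known from neurons, moved the opposite way. It gave 685 and 440 in PC-3, 1395 and 1278 in TEM4-18 and 1196 and 1276 in TEM2-5, so every TEM array lay above both PC-3 arrays. The TEM means were 238% and 220% of the PC-3 mean of 563 ± 174 (SD, n = 2), and the difference was 1.20 ± 0.20 and 1.10 ± 0.20. A second tested probe set of NOVA1 was at 0.79 and 0.43 and was not called.

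**Figure D2:**
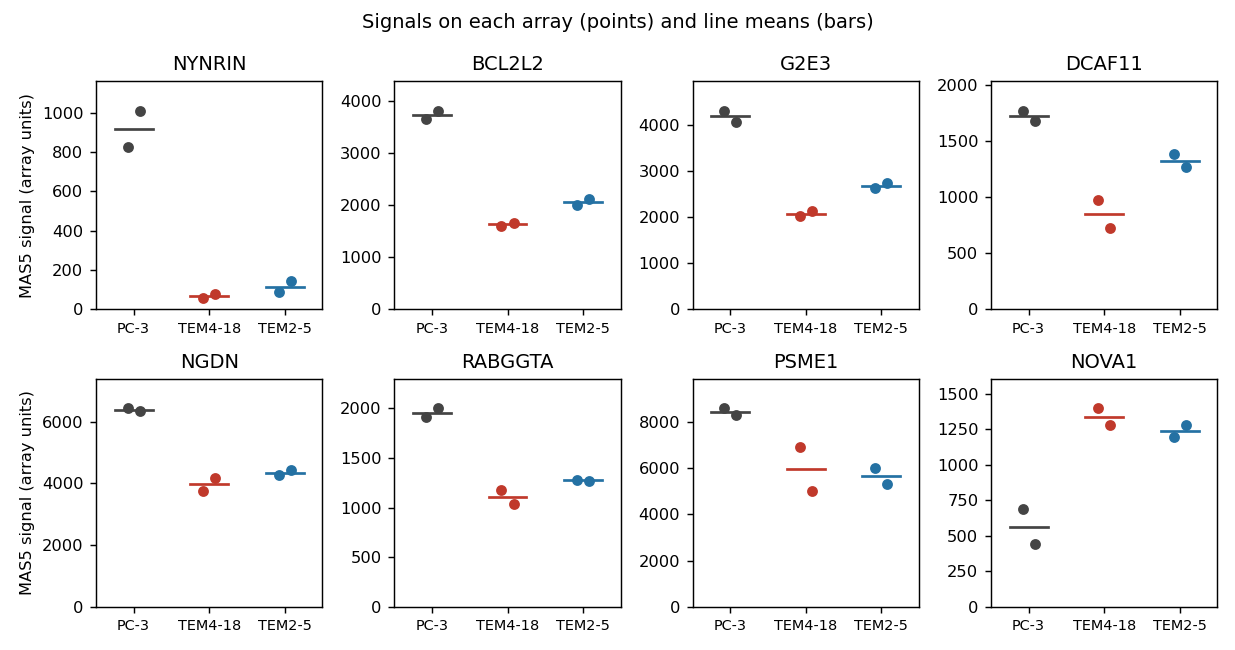
MAS5 signal in array units, from 0, for NYNRIN, BCL2L2, G2E3, DCAF11, NGDN, RABGGTA, PSME1 and NOVA1 in the 3 lines, with points for single arrays and bars for line means of 2 arrays. NYNRIN lies between 826 and 1012 in PC-3 and between 59.2 and 143 in the TEM lines, and NOVA1 between 440 and 685 and between 1196 and 1395.

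Dehydrogenases and small-molecule metabolism hold 5 tested members, all below 0 in both lines. Called lower were 4 in TEM4-18 and 3 in TEM2-5, where 16% and 10.1% of all tested genes were. DHRS2, a mitochondrial and nuclear short-chain dehydrogenase, gave 1268 and 920 in PC-3, 540 and 582 in TEM4-18 and 611 and 606 in TEM2-5. The TEM lines lay apart from PC-3, at -0.89 ± 0.20 and -0.78 ± 0.20. PCK2, the mitochondrial phosphoenolpyruvate carboxykinase, gave 1221 and 1386 in PC-3, 778 and 760 in TEM4-18 and 870 and 865 in TEM2-5. No 2 lines overlapped, and the difference was -0.72 ± 0.16 and -0.56 ± 0.16. THTPA, which hydrolyses thiamine triphosphate, was at -0.78 ± 0.18 in TEM4-18 and, not called, at -0.32 ± 0.18 in TEM2-5. SDR39U1, a further short-chain dehydrogenase, was called in neither line, at -0.29 ± 0.13 and -0.16 ± 0.13, and 1 TEM2-5 array (3360) lay above both PC-3 arrays (3358 and 3284).

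Cell survival and death is represented by BCL2L2, which encodes the anti-apoptotic protein BCL-w, and RIPK3, the kinase that starts necroptosis. BCL2L2 gave 3661 and 3820 in PC-3, 1601 and 1667 in TEM4-18 and 2008 and 2117 in TEM2-5. The 3 lines did not overlap, TEM4-18 at 43.7% and TEM2-5 at 55.1% of PC-3, with differences of -1.17 ± 0.11 and -0.84 ± 0.11. RIPK3 was called in neither line, with 423 and 431 in PC-3, 367 and 262 in TEM4-18 and 246 and 244 in TEM2-5. All of its TEM arrays lay below PC-3, and the differences were -0.40 ± 0.29 and -0.69 ± 0.29.

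Membrane traffic and transport hold 5 tested members, of which 2 were called lower in each line. Of all tested genes, 16% were called lower in TEM4-18 and 10.1% in TEM2-5. AP1G2, the gamma-2 subunit of the AP-1 clathrin adaptor, gave 2629 and 3160 in PC-3, 1877 and 1671 in TEM4-18 and 1920 and 1904 in TEM2-5, at -0.69 ± 0.13 and -0.58 ± 0.13. RABGGTA, a subunit of the enzyme that attaches geranylgeranyl groups to Rab proteins, gave 1908 and 1999, then 1173 and 1038, then 1275 and 1273, at -0.79 ± 0.14 and -0.60 ± 0.14. For both genes every TEM array lay below PC-3 and TEM4-18 below TEM2-5. SLC7A8, a neutral amino-acid transporter, was at -0.48 ± 0.31 and -0.38 ± 0.31, and SLC22A17, a receptor for lipocalin-2, at 0.27 ± 0.35 and 0.14 ± 0.35, none of them called. STXBP6, a syntaxin-binding protein of exocytosis, differed in sign between the lines, at -0.38 ± 0.42 and 0.58 ± 0.42, and was not called; its TEM4-18 mean of 157 lay below the filter.

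The remaining groups had 0 calls in either line. TINF2, the TIN2 protein that joins the shelterin complex at telomeres, was at -0.24 ± 0.12 and -0.30 ± 0.12, with 3871 and 3878 in PC-3 and 2946 to 3652 in the TEM lines. REC8, the meiotic cohesin subunit, was at -0.22 ± 0.21 and -0.25 ± 0.21. LTB4R, the leukotriene B4 receptor, was at -0.51 ± 0.22 and -0.45 ± 0.22, and its TEM arrays, 424 to 503, lay below the PC-3 values of 619 and 681. NFATC4, a calcium-regulated transcription factor, had TEM2-5 arrays of 58.9 and 381 that lay far apart. CEBPE, a transcription factor of granulocyte maturation, and PRKD1, protein kinase D1, had TEM2-5 arrays that overlapped PC-3 and were at -0.31 ± 0.43 and -0.11 ± 0.43, and at -0.23 ± 0.38 and -0.02 ± 0.38.

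Of the 31 tested members, 12 had more than 1 tested probe set. All probe sets of a gene were below 0 for 10 of these 12 in TEM4-18 and for 8 in TEM2-5. The exceptions were NOVA1, with both above 0, SLC7A8, with 1 probe set at 0.20 and 0.06, and in TEM2-5 also LTB4R, with 1 at 0.21, and G2E3, with 1 at 0.16. Over all 48 tested probe sets of the members, 44 were below 0 in TEM4-18 and 40 in TEM2-5. The 5 probe sets of G2E3 ranged from -0.997 to -0.27 in TEM4-18 and from -0.63 to 0.16 in TEM2-5, so the values above, from the brightest probe set, are at the lower end. SLC7A8 had 1 further probe set, at -1.37 in TEM4-18, that was called. Without the filter, the brightest probe sets were below 0 for 31 of 37 members in each line.

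Order on the chromosome was taken from RefSeq. The stretch from CEBPE to G2E3 held 40 tested genes, the 31 members and 9 others. Of the 9 others, 8 were below 0 in TEM4-18 and 7 in TEM2-5, with medians of -0.46 and -0.22. IRF9, the DNA-binding subunit of the interferon-activated complex ISGF3, was the only one called, lower in both lines, and is named because of that call. It was at -1.72 ± 0.15 and -1.07 ± 0.15, from a PC-3 mean of 3433 to 1010 and 1610. The running median over 11 neighbouring tested genes was below 0 at all 40 positions, between -0.72 and -0.31 in TEM4-18 and between -0.47 and -0.22 in TEM2-5. The lowest running median on the chromosome lay within the stretch for TEM2-5, at -0.47 in a window with 9 members. For TEM4-18 it lay elsewhere, at -0.82 in a window with 0 members.

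Among the 15 tested genes before CEBPE the median was -0.18 in TEM4-18 and -0.08 in TEM2-5, with 1 and 2 called lower and 0 higher. The 5 nearest to CEBPE were C14orf119, at -0.36 (called in TEM4-18) and -0.22, ACIN1, an apoptosis and splicing factor, at -0.24 and -0.25, PSMB5, a catalytic proteasome subunit, at 0.01 and -0.05, CDH24, a cadherin, at 0.34 and 0.06, and C14orf93 at 0.39 and -0.05. The nearest genes beyond G2E3 also had lower signals: SCFD1, a vesicle-docking factor, was at -0.75 and -0.42, COCH, cochlin of the inner ear, at -0.81 and -0.78, and HEATR5A, an endosomal trafficking gene, at -1.38 and -0.54, all called in both lines, while STRN3 was at -0.62 (called) and -0.22 and AP4S1 at -0.27 and -0.06. The next gene, DTD2, was called higher in both lines, at 0.60 and 0.47, and is named because of that value, as the point where the sign changed. Over the 15 genes after G2E3 the medians were 0.44 and 0.27, with 4 lower and 8 higher calls in TEM4-18 and 3 lower and 6 higher in TEM2-5. The 413 tested chromosome 14 genes that are no members had medians of -0.09 and 0.02.

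**Figure D3:**
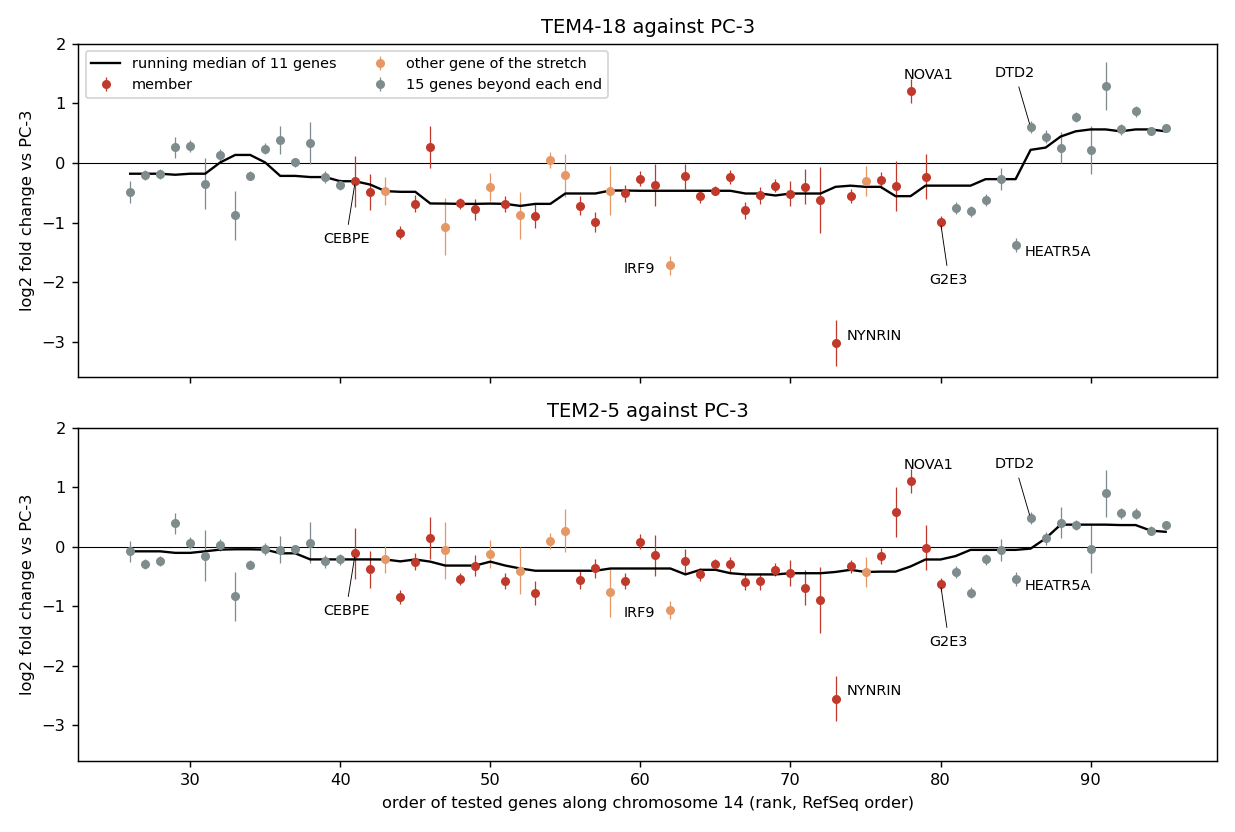
Log2 difference from PC-3 of the tested genes around the stretch, by rank along chromosome 14, for TEM4-18 (upper panel) and TEM2-5 (lower panel), with standard errors as bars. Colours set members apart from other genes of the stretch and from the 15 genes beyond each end, and the line is the running median of 11 genes, which stays between -0.72 and -0.31 in TEM4-18 and between -0.47 and -0.22 in TEM2-5 from CEBPE to G2E3.

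The comparison of TEM4-18 with TEM2-5 was not used to choose the members, although it uses the same TEM arrays. The median log2 difference was -0.13, against -0.01 over all tested genes, and 22 of the 31 members were lower in TEM4-18, as were 52.3% of all genes. Of the members, 0 were called in either direction at limma's adjusted p, where 2.26% of all genes were called lower and 0.492% higher. At an unadjusted p under 0.05, 8 of the 31 differed, and all 8 were lower in TEM4-18, against 14.8% of all genes in either direction. The closest to the threshold was DCAF11, at -0.62 ± 0.17 with a 95% interval of -0.99 to -0.25 (limma adjusted p = 0.112), followed by G2E3 at -0.36 ± 0.11, from -0.60 to -0.12 (limma adjusted p = 0.162), and PABPN1 at -0.43 ± 0.14 (limma adjusted p = 0.219). BCL2L2, EMC9, THTPA, STXBP6 and NEDD8 made up the rest of the 8. Both TEM4-18 arrays lay below both TEM2-5 arrays for 16 of the 31 members, as for 3255 of the 13621 tested genes.

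DHRS1 differed least, at 0.01 ± 0.11 with an interval of -0.23 to 0.25, and NOP9, REC8, TINF2 and PSME1 were between 0.02 and 0.07. The median width of the interval, from its lower to its upper end, was 0.71 in log2 units.

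**Figure D4:**
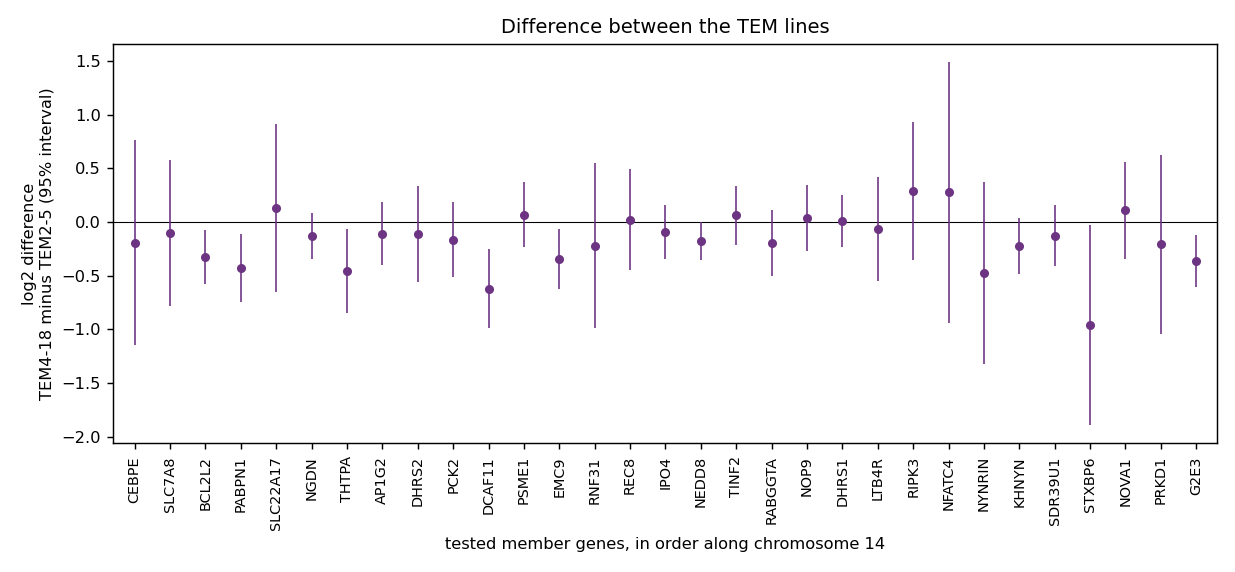
Log2 difference of TEM4-18 from TEM2-5 for each of the 31 tested members, with 95% intervals of the fit as bars. The points of 22 members lie below 0, and 8 intervals do not include 0, DCAF11 at -0.62 among them.

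Partners of the members that are themselves no members were followed in 8 lists written from general knowledge. Their position was not used, and PSMB5, named above among the genes nearest to CEBPE, is counted in the proteasome list. For the counts that follow, 16% of all tested genes were called lower and 13.3% higher in TEM4-18, and 10.1% and 8.98% in TEM2-5. In the proteasome list, which also held TAP1 and TAP2, 8 of 21 other tested genes were called lower and 1 higher in TEM4-18. In TEM2-5 4 were called lower and 0 higher, and the medians in the 2 lines were -0.17 and -0.16. PSME4, the PA200 activator, was at -0.39 and -0.27, and the core subunits PSMB2 and PSMB3 were at -0.34 and -0.31 and at -0.33 and -0.25. Of 17 other neddylation genes, 3 were called lower and 3 higher in TEM4-18 and 0 lower and 3 higher in TEM2-5. The cullin CUL4B was at 0.55 and 0.62, DCUN1D1, which helps load NEDD8 onto cullins, at 0.60 and 0.35, and CUL3 at 0.36 and 0.32, while NEDD8 itself was lower.

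The 5 other shelterin genes had 0 calls. Of 8 other dehydrogenases of the DHRS family, 2 were called lower in each line, DHRS7B at -2.05 and -1.64 and DHRS3, a retinal reductase, at -0.93 and -0.75, with list medians of -0.41 and -0.24. In the importin list, which also held XPO1, 3 of 10 others were called higher in each line, and 0 and 1 lower, where IPO4 was lower. Among the higher ones were IPO5 at 0.56 and 0.46 and TNPO1, the receptor transportin-1, at 0.30 and 0.35. In the ESCRT-III list of 12 others, 2 were called lower and 2 higher in TEM4-18 and 2 lower and 1 higher in TEM2-5. CHMP4C and CHMP4B, relatives of the member CHMP4A, went opposite ways, at -0.88 and -0.76 and at 0.54 and 0.52, and CHMP2B was at -0.51 and -0.42. Of 7 others in the linear ubiquitin and necroptosis list, 2 were lower and 1 higher in TEM4-18 and 1 lower and 0 higher in TEM2-5, and SHARPIN, which works with RNF31, was at -0.43 and -0.45. Of 4 others in the protein kinase D and Rab prenylation list, 1 was lower and 2 higher in TEM4-18 and 1 lower and 1 higher in TEM2-5. RABGGTB, the partner subunit of RABGGTA, was at -0.45 and -0.47, and CHML, an escort protein that presents Rab proteins to that enzyme, went the other way, at 0.54 and 0.39. These lists describe genes and were not tested as sets.

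Over the 6 arrays, median signals were 267 to 317, higher on the array numbered 1 than on that numbered 2 in each of the 3 lines, and the arrays of a line correlated at 0.976 to 0.980 across probe sets. The epithelial markers of the labelled carcinoma cells were present in PC-3, with KRT8 at 23060 and KRT18 at 59194. All 7 were called lower in TEM4-18 and 6 in TEM2-5. In TEM4-18 KRT8 and KRT18 were at 6721 and 29235, while CDH1 and ESRP1, at 41.8 and 28.1, lay below the filter of 174. The PC-3 means of CDH1 and ESRP1 were 14772 and 13535, and those of TEM2-5 2499 and 1762. EPCAM was at 43452 in PC-3, 1880 in TEM4-18 and 10626 in TEM2-5. Of 12 endothelial markers, 5 were tested, while CDH5, VWF and TEK were among those below the filter. Of the 5, 3 were called higher in TEM4-18 and 2 in TEM2-5, and 0 lower: KDR, a VEGF receptor, at 2.40 and 2.29, ROBO4 at 0.73 and 0.78, and ESAM at 1.40 and, not called, 0.71. The rest of the 5 were called in neither line, EGFL7 at -0.51 and -0.56 and PECAM1 at -0.40 and 0.08. The summed signal of the endothelial list was 2961 to 3184 in PC-3, 4153 to 5381 in TEM4-18 and 4432 to 4628 in TEM2-5. That of the fibroblast list was 9526 to 11160 in PC-3, 20479 to 23645 in TEM4-18 and 22422 to 25934 in TEM2-5, and most of that sum was COL1A1, with means of 7584, 20625 and 19986. Other fibroblast markers differed from it: LUM was called lower in TEM4-18, at -3.18, and PDGFRA lower in TEM4-18, at -0.77, and higher in TEM2-5, at 1.32, while COL3A1 was at -1.17 and 0.64, not called, and the list medians were -0.70 and 0.64. The summed leukocyte signal was 757 to 908 in PC-3, 944 to 1118 in TEM4-18 and 657 to 819 in TEM2-5. The part of these markers in the members' values was not tested.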

How the data were processed

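Total RNA of 3 cell lines was measured on 6 Affymetrix arrays, grouped by their titles. For the second TEM2-5 array, the label for its source gives replicate 1 where the title gives 2; the title was followed, and whether the TEM2-5 arrays are separate replicates, on which their errors and the replicate block rest, is therefore less sure. The files deposited by the authors hold 1 linear signal intensity per probe set, and the submitters' processing notes name MAS5 without a version. The 2% trimmed mean of the intensities was 1500.17 to 1500.18 on every array, so they were not normalized again. Of 54675 probe sets, the platform annotation gave 41097 a single symbol, 1801 several and 11777 none, and no gene was named from several.

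Intensities were transformed to log2(value + 51.8), the constant being their 20th percentile. Probe sets with a mean above 174, the 40th percentile, were kept (32768), and each gene was represented by its brightest. limma 3.58.1 in R 4.3.3 (lmFit, eBayes with a mean-variance trend) was fitted to all arrays, with 3 residual degrees of freedom, two-sided tests and Benjamini-Hochberg adjustment. Scripts were tested on simulated data. The number of arrays limits the precision. Low MAS5 values, from which mismatch signal has been subtracted, are noisy.

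The members, lists, roles and tests were chosen with earlier results of these data known. Named genes were the members, the 5 genes nearest each end and up to 3 genes a list called in both lines with the largest mean change. IRF9 and DTD2 were named after their values were seen, and single markers were picked from their lists. Alternatives covered the constant, the filter, normalization, trend, choice of probe set, replicate block and each array left out.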

Additional observations from a re-analysis of the deposited data

Results flagged for a closer look

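HEATR5A, the fifth tested gene beyond G2E3 and no member, differed between the TEM lines by a test of the difference itself. It gave 3469 and 3175 on the PC-3 arrays, 1295 and 1199 in TEM4-18 and 2268 and 2256 in TEM2-5. The log2 difference of TEM4-18 from TEM2-5 was -0.83 ± 0.12 (SE), and all TEM4-18 arrays lay below all TEM2-5 arrays (limma adjusted p = 0.00574). None of the 31 tested members passed this test. Single outlying arrays were not tested, since each line has 2. Among the markers, PDGFRA and 4 of the 7 epithelial markers, KRT8 among them, differed between the TEM lines by the same test. All were lower in TEM4-18. CDH1, ESRP1 and EPCAM differed most, at -4.79, -4.51 and -2.47 (limma adjusted p = 1.13e-07, 8.58e-08 and 1.91e-07). PDGFRA gave 685 and 434 in TEM4-18 and 2904 and 2170 in TEM2-5, a log2 difference of -2.10 ± 0.22 (limma adjusted p = 0.000661), and KRT8 gave 7379 and 6062 against 9416 and 9037, a difference of -0.46 ± 0.10 (limma adjusted p = 0.0432).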

How the results depend on the processing

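The count of members called lower in TEM2-5 changed most: it was 13 as reported, 5 without the mean-variance trend, and 5 to 13 with 1 array left out. The count in TEM4-18 was 17 and lay between 13 and 17 under all alternatives. The members' median stayed between -0.61 and -0.46 in TEM4-18, between -0.42 and -0.32 in TEM2-5 and between -0.18 and -0.11 for TEM4-18 against TEM2-5, where 0 members were called under each. With the replicate number as a block (replicate block), the counts stayed at 17 and 13 and the medians at -0.51, -0.38 and -0.13; deviations of same-numbered arrays correlated at 0.0625 to 0.0978, under 0.1 in each pair of lines, so the numbers were not taken to pair the arrays. Still, the array numbered 1 had the higher median signal in every line (317 against 282 in PC-3, 296 against 267 in TEM4-18 and 310 against 281 in TEM2-5) and the lower 95th percentile. For single members, 1207 of 1272 alternatives left the call and direction as reported, 64 lost a call, 1 gained one and 0 turned the direction. NYNRIN has no value under the stricter filter, a mean above 525. The same holds for CEBPE, SLC7A8, SLC22A17, RNF31, LTB4R, RIPK3, NFATC4, STXBP6 and PRKD1. The TEM2-5 calls of BCL2L2, G2E3 and NOVA1 were lost only when all probe sets of a gene were averaged. For a lost call without the trend the cause was not tested; with an array left out, fewer samples were fitted.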
